A study of Rattus norvegicus with 14 samples.

Results

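Chemokines and chemokine receptors were examined across the day in the pineal gland and retina of the rat. The members were the genes of the deposited table whose symbol starts with Ccl, Ccr, Cxcl, Cxcr, Xcl or Xcr and a digit, or with Cx3c, which gave 51 of 16472 genes: 34 ligands and 17 receptors. Rats were Sprague-Dawley animals of 6 to 8 weeks, with no allele or agent named in the labels, housed under a cycle with 14 h of light and 10 h of dark. Pineal glands and retinas were taken at zeitgeber time (ZT, hours after lights on) 1, 7 and 13, all in the light, and, after lights off, at 15, 19 and 23, with 1 library per tissue and time, each from a pool of 10 rats. Mixed pools of 15 tissues, retina among them and pineal gland not, came from 3 rats each at ZT7 and ZT19. Levels are FPKM, the fragments of a gene scaled by transcript length and by library size, so they can be compared between genes of different length.

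Chemokines are small secreted proteins that steer the movement of leukocytes by binding receptors coupled to G proteins, and they are grouped as CC, CXC, CX3C and C by the spacing of their first cysteines. Homeostatic members such as Cxcl12 and Ccl19 are made steadily and place cells in tissues, whereas inflammatory members such as Ccl2 and Cxcl10 are induced by cytokines through NF-kappaB and interferon signalling. In the nervous system, Cx3cl1 of neurons and Cx3cr1 of microglia form the best known pair. The pineal gland lies outside the blood-brain barrier and holds macrophages and microglia beside its pinealocytes.

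Of the 51 members, 25 reached 1 FPKM in at least 2 of the 14 libraries and could be tested between tissues: 19 ligands and 6 receptors. A member that passed only through the group where it is high had to differ there. On the mean over libraries, 17 members reached 1 FPKM in the pineal gland, 8 in the retina and 21 in the mixed pools. Members listed at 0 in every library of a group numbered 6 in the pineal gland, 10 in the retina and 4 in the mixed pools. Ccl26, Ccr4 and Cxcl6 were listed at 0 in all 14 libraries. The 26 members below the limit stayed at or under 1.21 FPKM in every library, the highest value being that of Ccl24 in the mixed ZT19 pool. A listed 0 can be a failed estimate in this table, since Gapdh, a gene every cell uses, was listed between 0.0715 and 0.567 FPKM.

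**Figure D1:**
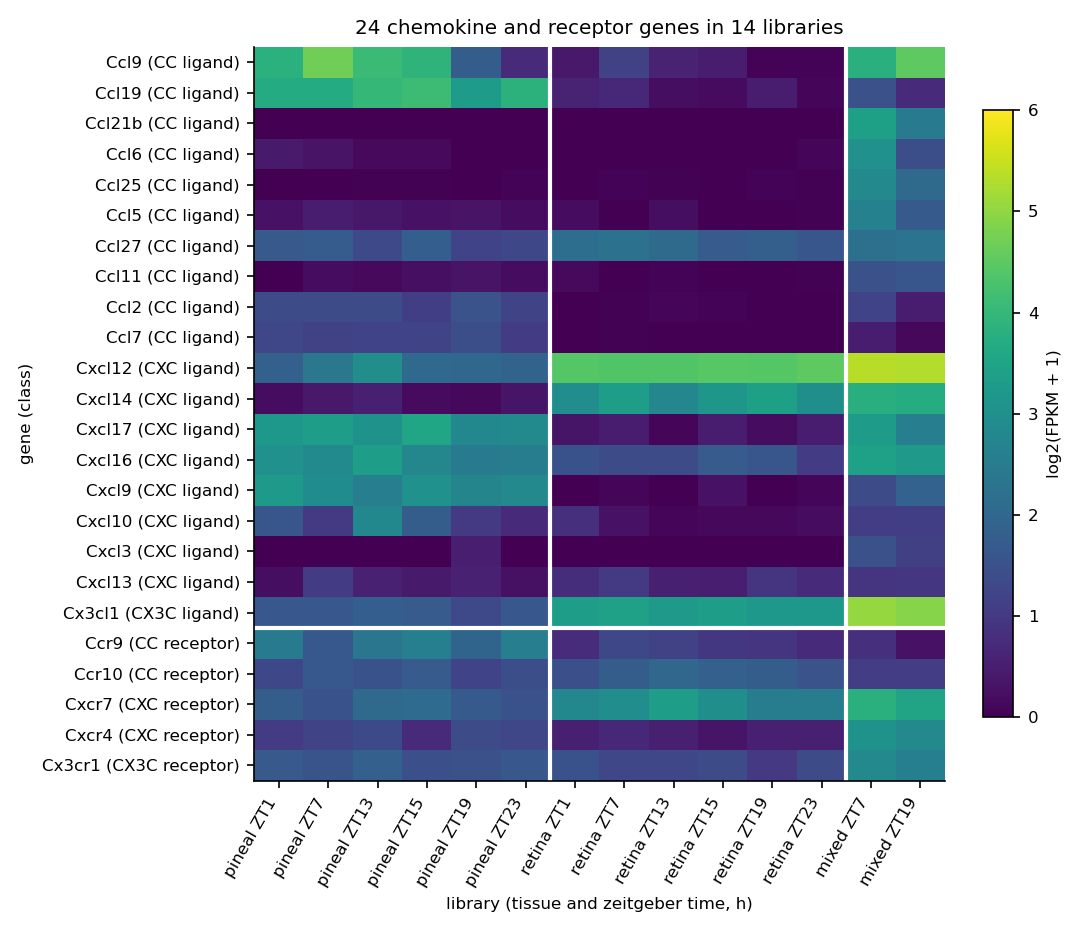
Levels of 24 chemokine and receptor genes (rows, ligands above the white line and receptors below it) in 14 libraries (columns), as log2(FPKM + 1) from 0 (dark) to 6 (bright). Ccl9, Ccl19, Cxcl17 and Cxcl9 are bright in the pineal libraries and dark in the retina, Cxcl12, Cxcl14 and Cx3cl1 are brighter in the retina, and Ccl9 darkens in the pineal ZT19 and ZT23 libraries.

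The libraries differed in ways that touch these genes. Summed FPKM ran from 152281 to 212634, and the value of 3 fragments in a transcript of 1 kb, estimated from olfactory receptor transcripts, ran from 0.0646 to 0.157 FPKM, so lower values were not distinguishable from counting error. The pineal ZT13 library had the highest pineal sum of 13 macrophage and microglia markers (69.5 against 45.2 in the lowest) and of 5 markers of meninges and fibroblasts (483 against 153). Macrophage markers summed to 45.2 to 69.5 FPKM in the pineal gland, 11.8 to 18.7 in the retina and 111 to 126 in the mixed pools, and none of the 13 was at 0 in all libraries of a group. The 7 T cell markers summed to 2.19 to 4.64 FPKM in the pineal gland and 1.47 to 2.19 in the retina. Most of the pineal sum was Cd4 (1.18 to 2.71 FPKM), which macrophages can also carry, and Cd8a (0.193 to 1.10), whereas Cd3d, Cd3e and Cd3g, which define T cells, were at most 0.336. Cd4 and Cd8a were called higher in the pineal gland than in the retina, and Cd8a was called by a 24-h cosine fitted to the pineal libraries. The 5 pinealocyte markers summed to 4784 to 5349 FPKM in the pineal libraries, mostly from Tph1 (2968 to 3848). Aanat, the night enzyme of melatonin synthesis, ranged there from 5.13 to 857 FPKM. Rod markers summed to 13371 to 17754 FPKM in the retina. In these bulk samples, fewer cells of a type and less RNA per cell cannot be told apart.

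Pineal glands and retinas differed in most of the members that could be tested. limma, fitted over all genes with the libraries of a tissue as its replicates, called 19 of 25 members between pineal gland and retina at an adjusted p under 0.05, beside 68.9% of all 11656 genes tested. 13 were higher in the pineal gland (36.9% of all genes) and 6 were lower (32.0%). Counted in both directions together, the share called is close to that of all genes. Of the 25, 6 passed the limit of 1 FPKM through the mixed pools alone, and only Ccl11 of those was called. The median difference on the log2(FPKM + 1) scale was 0.25 for the 25 members and 0.03 for all genes. In 13 members the 6 pineal and 6 retina libraries did not overlap at all, 9 of them with the pineal gland above (25.6% of all genes) and 4 with it below (24.4%). These libraries differ in time of day and in pool, and nothing in the labels names separate samples of 1 time, so p-values measure the spread over times and pools together.

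Among CC ligands, Ccl19, which guides dendritic cells and naive T cells through Ccr7, had the highest pineal mean of all members, although Ccl9 (11.9 ± 9.07 FPKM, SD, n = 6) did not lie beyond its own spread from it. Ccl19 lay between 8.90 and 16.3 FPKM in the pineal libraries (median 12.7) and between 0.0734 and 0.610 in the retina (median 0.273). The lowest pineal library was thus far above the highest retina library, and the difference was 3.41 on the log2(FPKM + 1) scale (SE 0.16, limma adjusted p = 4.1e-11, n = 6 and 6). Ccl19 lies on rn4 chr5:59221738-59223682, between Ccl27 and Ccl21b. Its neighbours did not share this pattern. Ccl27, a ligand of Ccr10 known from skin, was lower in the pineal gland (1.29 to 2.45 FPKM, median 1.84) than in the retina (2.06 to 3.81, median 2.85), with overlapping libraries and a difference of -0.44 (SE 0.14, limma adjusted p = 0.0104). That call was lost under quantile normalization (limma adjusted p = 0.0665). Ccl21b, the other ligand of Ccr7, was listed at 0 in all 12 pineal and retina libraries and at 9.66 and 4.55 FPKM in the mixed pools.

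Ccl9, an inflammatory chemokine of myeloid cells that binds Ccr1, ranged from 0.654 to 25.0 FPKM in the pineal gland and from 0.0460 to 1.26 in the retina. The ranges overlapped, with the low pineal values at ZT19 and ZT23, and the difference was 2.70 (SE 0.55, limma adjusted p = 0.000478). Ccl2 and Ccl7, neighbouring monocyte attractants that act on Ccr2, were low but clearly separated. Ccl2 was between 1.18 and 1.92 FPKM in the pineal libraries and at most 0.0769 in the retina, where 3 libraries were listed at 0. Ccl7 was between 1.09 and 1.73 FPKM in the pineal libraries and was listed at 0 in every retina library except ZT7, at 0.0329. Their differences were 1.30 (SE 0.10, limma adjusted p = 1.9e-08) and 1.23 (SE 0.07, limma adjusted p = 2.28e-10).

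Ccl5, Ccl6, Ccl11 and Ccl25, like Ccl21b and Cxcl3, reached the limit for testing in the mixed pools alone. In pineal gland and retina these 4 CC ligands stayed at or under 0.374 FPKM. Ccl11, an eosinophil attractant, was still called higher in the pineal gland by 0.15 (SE 0.05, limma adjusted p = 0.0198), at levels of 0 to 0.240 FPKM against 0 to 0.111, which is at the counting floor. Ccl5, Ccl6 and Ccl25 were not called, with adjusted p of 0.0688, 0.462 and 0.929 by limma.

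Among CXC ligands, Cxcl9, Cxcl16 and Cxcl17 stood out in the pineal gland. Cxcl9, an interferon-induced ligand of Cxcr3, lay between 4.89 and 8.37 FPKM in the pineal libraries (median 6.33) and between 0 and 0.233 in the retina, a difference of 2.80 (SE 0.11, limma adjusted p = 7.96e-12). Cxcl17, a mucosal chemokine that attracts myeloid cells, lay between 5.96 and 10.7 FPKM (median 7.73) against 0.0792 to 0.387 in the retina, a difference of 2.79 (SE 0.15, limma adjusted p = 1.54e-10). Cxcl16, made as a membrane protein and bound by Cxcr6, lay between 4.60 and 9.28 FPKM (median 6.08) against 1.09 to 2.31, a difference of 1.40 (SE 0.15, limma adjusted p = 5.57e-07). In all of these the pineal libraries were above every retina library. Cxcl10, another ligand of Cxcr3, was higher by 1.21 (SE 0.27, limma adjusted p = 0.00108), with overlapping libraries. Cxcl11, the remaining ligand of Cxcr3, stayed at or under 0.433 FPKM in both tissues and was not tested.

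Cxcl12 and Cxcl14 went the other way. Cxcl12, the homeostatic ligand of Cxcr4 and Cxcr7, was the most abundant member of the retina, between 19.7 and 21.8 FPKM (median 20.4) against 2.58 to 6.82 in the pineal gland (median 3.07), a difference of -2.24 (SE 0.15, limma adjusted p = 3.74e-09). Its value sums 3 transcripts, of which 1 gave 17.2 to 19.3 FPKM in the retina. Cxcl14, a constitutive chemokine of epithelia and neurons, lay between 5.89 and 9.60 FPKM in the retina (median 7.49) and between 0.0934 and 0.443 in the pineal gland, a difference of -2.81 (SE 0.11, limma adjusted p = 6.48e-12). Cxcl13, a B cell attractant, did not pass the test (0.160 to 1.08 FPKM in the pineal gland, 0.414 to 1.01 in the retina, limma adjusted p = 0.131). Cxcl3, a neutrophil attractant, was listed at 0 in all retina libraries and in 5 of 6 pineal libraries.

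Cx3cl1, fractalkine, which is anchored to the membrane of neurons, lay between 8.19 and 9.81 FPKM in the retina (median 8.84) and between 1.51 and 2.46 in the pineal gland (median 2.09). The libraries did not overlap, and the difference was -1.67 (SE 0.08, limma adjusted p = 7.87e-11). Xcl1, the C ligand, stayed at or under 0.169 FPKM in every library.

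All 6 receptors that could be tested passed between the tissues, beside 68.9% of all genes. Ccr9, the receptor of gut-homing lymphocytes, showed the largest difference among them: 2.14 to 5.01 FPKM in the pineal gland (median 4.33) against 0.654 to 1.45 in the retina (median 0.934), or 1.28 (SE 0.17, limma adjusted p = 7.25e-06). Cxcr4, the signalling receptor of Cxcl12, was at 0.643 to 1.57 against 0.262 to 0.598 FPKM, a difference of 0.64 (SE 0.10, limma adjusted p = 5.66e-05). For Ccr9 and Cxcr4 no pineal library overlapped the retina. Cx3cr1, the receptor of microglia, did overlap (1.78 to 2.56 against 0.981 to 1.85 FPKM) and was higher in the pineal gland by 0.31 (SE 0.10, limma adjusted p = 0.0098).

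Cxcr7, an atypical receptor that takes up Cxcl12 without coupling to G proteins, was lower in the pineal gland, at 1.84 to 3.25 FPKM (median 2.33) against 4.73 to 9.31 in the retina (median 6.30), a difference of -1.08 (SE 0.15, limma adjusted p = 1.38e-05). Ccr10 differed least, at 1.31 to 2.31 against 1.76 to 2.96 FPKM. Its difference of -0.26 (SE 0.11, limma adjusted p = 0.0437) was lost in 13 of 20 alternatives, among them quantile normalization (limma adjusted p = 0.46) and leaving out any of 10 libraries singly. The 11 other receptors stayed at or under 1.02 FPKM everywhere and were not tested. Cxcr6 lies wholly within Fyco1, which reached 27.2 to 53.2 FPKM in the pineal gland, and Cxcl10 and Cxcl11 lie within Art3 (0.388 to 1.11 FPKM in both tissues), so these genes share genomic span. Whether their exons overlap was not examined.

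Markers of several other cell types differed between the tissues in both directions. Higher in the pineal gland than in the retina (36.9% of all genes) were 12 of the 12 macrophage markers that could be tested (median difference 1.10), 5 of 5 markers of meninges and fibroblasts (3.30), 4 of 5 of endothelium (1.22) and 2 of 3 of red cells and platelets (2.80). So were 2 of 2 of neutrophils (0.53), 2 of 3 of mural cells (0.41) and Kit, the 1 tested mast cell marker (3.98). The other mast cell markers, Cma1, Cpa3, Mcpt1 and Tpsab1, were at most 0.0592 FPKM in any pineal library. Kit alone thus carried that list and is no measure of mast cells here. Lower (32.0% of all genes) were 4 of 4 rod markers (-9.21), 3 of 3 of lens (-5.84) and 3 of 4 of astrocytes and Muller glia (-2.25). The part of these cells in the chemokine differences was not tested. Cxcl16 made up 9.73% to 13.3% of the summed macrophage markers in the pineal gland and 7.38% to 17.1% in the retina. Such overlap was not general. Cx3cr1 made up 3.10% to 4.24% in the pineal gland and 7.55% to 11.8% in the retina, and Ccl19 19.7% to 28.5% and 0.496% to 3.26%. Ccl19, Cxcl9 and Cxcl17 differed by 3.41, 2.80 and 2.79, more than the median of the macrophage markers and beside the 3.30 of the meningeal ones.

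**Figure D2:**
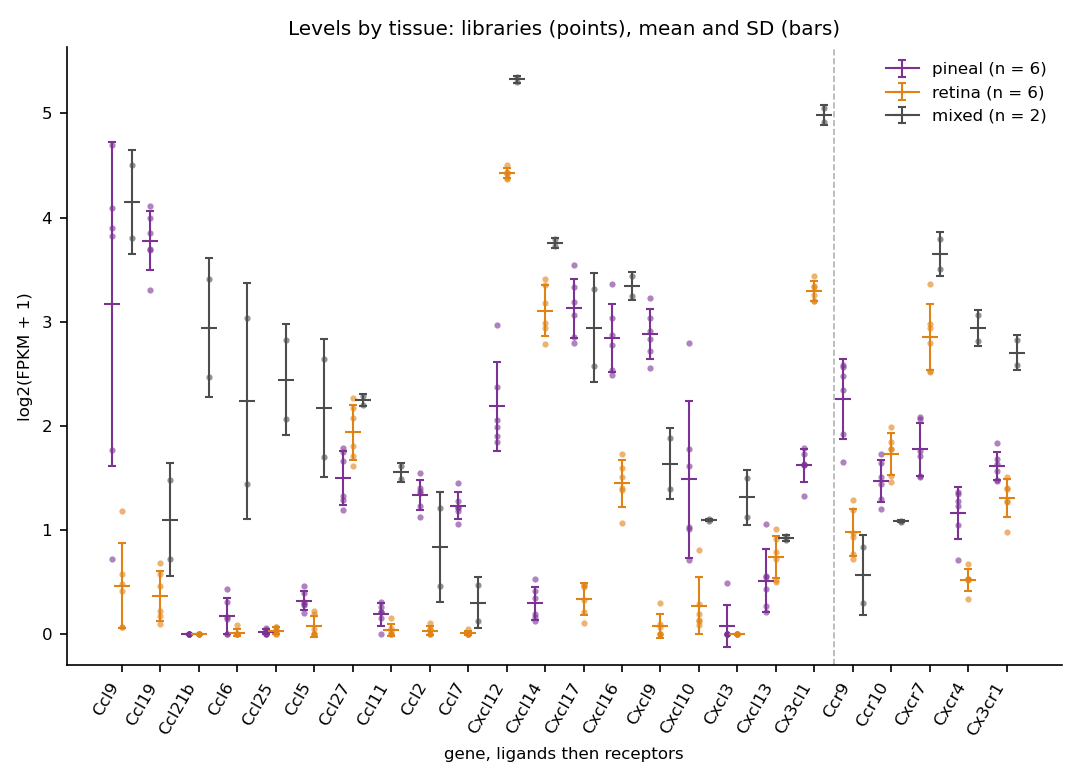
Levels of 24 members as log2(FPKM + 1) in pineal gland (6 libraries), retina (6) and mixed pools (2); points are libraries, and bars show mean and SD on that scale. The widest pineal spread is that of Ccl9, followed by Cxcl10, and Ccl19, Cxcl9, Ccr9, Ccl2 and Ccl7 have pineal means above the other groups.

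Against the mixed pools, more members were lower in the pineal gland than higher. limma called 21 of 25 members (64.8% of all genes), 6 higher (19.8%) and 15 lower (45.0%). Of the 15, Ccl5, Ccl6, Ccl11, Ccl21b, Ccl25 and Cxcl3 passed the limit of 1 FPKM through the pools alone and could therefore only be lower. Of the 19 members that passed it within the pineal and retina libraries, 6 were higher (22.1% of such genes) and 9 lower (38.6%). The 6 were Ccl19 (2.68, SE 0.23), Ccr9 (1.69, SE 0.24), Cxcl9 (1.24, SE 0.16), Ccl7 (0.93, SE 0.09), Ccl2 (0.50, SE 0.14) and Ccr10 (0.39, SE 0.15). Their limma adjusted p ran from 3.88e-08 for Ccl19 to 0.0369 for Ccr10. Ccl2 was not called without the mixed ZT19 pool (limma adjusted p = 0.475), and Ccr10 was not called in 6 of 19 alternatives. Ccl9 (0.654 to 25.0 FPKM in the pineal gland, 12.9 and 21.7 in the pools) and Cxcl17 (5.96 to 10.7 FPKM, 8.96 and 4.95) did not pass.

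Of these 9, the lowest were Cxcl14 (-3.46, SE 0.16), Cx3cl1 (-3.36, SE 0.12) and Cxcl12 (-3.14, SE 0.22). Ccl25, the ligand of Ccr9 made in thymus and gut, was at 6.07 and 3.19 FPKM in the pools. The median of all genes was -0.25 in this comparison and 0.22 after quantile normalization, under which 10 members were higher and 10 were lower in place of 6 and 15. Ccl27 (-0.74) turned to 0.16 under that scaling.

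The retina was lower than the mixed pools in 20 members and higher in 1, Ccr10 (0.65, SE 0.15, limma adjusted p = 0.00166), out of 21 called (65.0% of all genes, 18.4% higher and 46.6% lower). The same 6 members that passed through the pools alone are among the 20, and of the other 19 tested members 14 were lower (40.4% of such genes). Cxcl12 and Cxcl14, although high in the retina, were lower than in the pools (-0.90, SE 0.22, and -0.65, SE 0.16). After quantile normalization, 4 members were higher and 15 lower, and Ccl19 and Ccl7 turned from -0.73 and -0.29 to 0.20 and 0.07. Both pool comparisons rest on 2 libraries, and retina RNA is 1 of the pools' 15 tissues.

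Levels of ligands were set beside those of their textbook receptors in 24 pairs. In the pineal gland, 4 pairs had ligand and receptor at a mean of at least 1 FPKM: Ccl27 with Ccr10 (1.87 and 1.79 FPKM), Cxcl12 with Cxcr4 (3.74 and 1.26), Cxcl12 with Cxcr7 (3.74 and 2.47) and Cx3cl1 with Cx3cr1 (2.09 and 2.07). The retina had 3 such pairs, the same without Cxcr4, and the pools had 4. Ccl19, Ccl9, Cxcl9 and Cxcl16, 4 of the 5 ligands with the highest pineal means, had little of their paired receptor in the gland, and Cxcl17, the other one, was set beside none. Ccl19 stood at 12.9 ± 2.61 FPKM (SD, n = 6), whereas Ccr7 was at 0.0374 to 0.845. Ccl9 faced Ccr1 at 0.113 to 0.810 FPKM, Cxcl9 faced Cxcr3 at 0.0426 to 0.297, and Cxcl16 faced Cxcr6 at 0.0957 to 0.349.

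Ccr9 showed the opposite arrangement, with a pineal level of 3.92 ± 1.19 FPKM (SD, n = 6) and its ligand Ccl25 at 0 to 0.0397. A ligand can act on cells elsewhere, and mRNA levels say nothing of protein, so these are levels in 1 tissue and no measure of signalling.

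**Figure D3:**
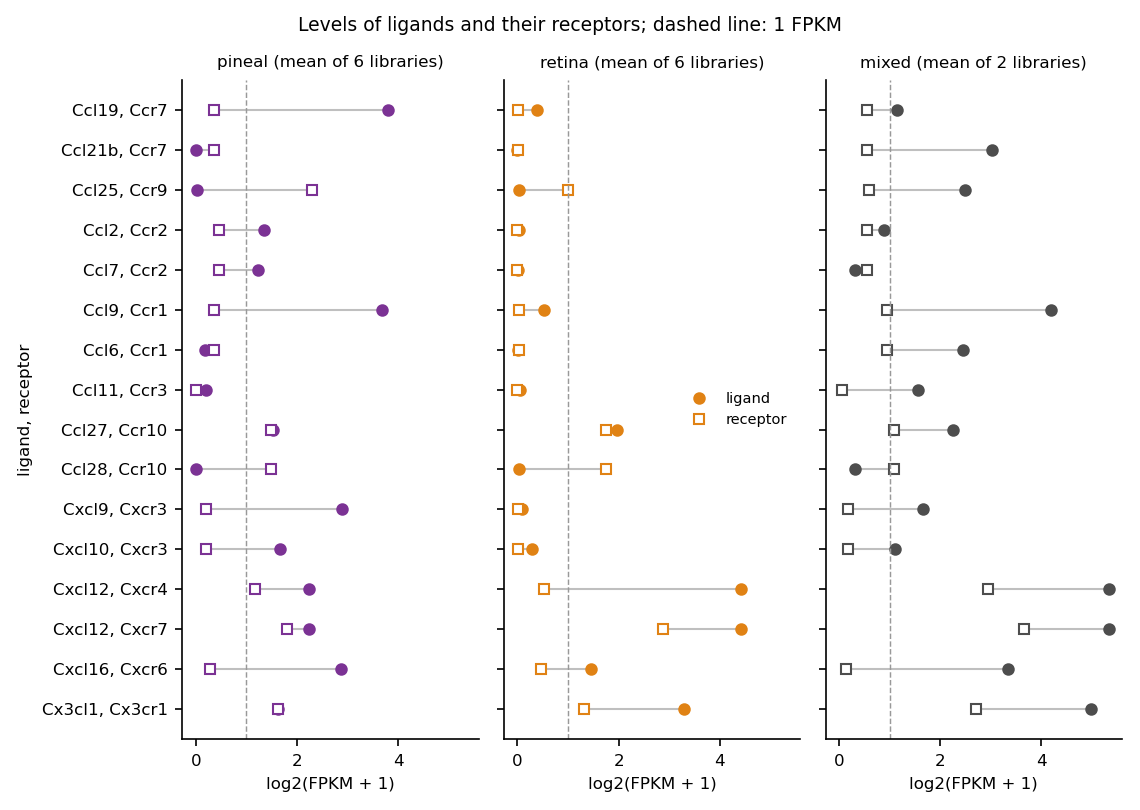
Mean levels, as log2(FPKM + 1), of ligands (filled circles) and their receptors (open squares) in pineal gland, retina and mixed pools, for the 16 of 24 pairs with a mean of at least 1 FPKM in some group. In the pineal panel Ccl19, Ccl9, Cxcl9 and Cxcl16 lie far right of their receptors, whereas Ccr9 lies far right of Ccl25.

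Over the day, Ccl9 was the member with the clearest change, and it fell in the second part of the pineal night. Pineal Ccl9 stood at 13.1 FPKM at ZT1, 25.0 at ZT7, 16.1 at ZT13, 14.0 at ZT15, 2.40 at ZT19 and 0.654 at ZT23. The library taken 1 h into darkness was still at the level of the light libraries, and both later dark libraries were below all others. The mean of ZT1, ZT7 and ZT13 was 18.1 ± 6.17 FPKM (SD, n = 3) and that of ZT19 and ZT23 was 1.53 ± 1.24 (SD, n = 2), a ratio of 11.8. In the phase model, which compares ZT19 and ZT23 with ZT1, ZT7 and ZT13 and gives ZT15 its own mean, Ccl9 fell by 2.96 on the log2(FPKM + 1) scale (SE 0.33, limma adjusted p = 0.000797). It was the only one of 19 tested members called there, beside 7.28% of all 10416 genes (3.04% higher and 4.23% lower), and the median over all genes was -0.12. The call was lost when ZT15 was grouped with the dark libraries (-2.07, limma adjusted p = 0.324) and held in the other 19 alternatives, including leaving out each pineal library.

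A 24-h cosine fitted to the pineal libraries called Ccl9 and Cxcl12, 2 of 19 members, beside 20.7% of all genes. For Ccl9 the fitted range from trough to peak was 3.68 on the log2 scale, with the peak at ZT8.87 (limma adjusted p = 0.0145). The call was lost with no filter on low genes (adjusted p = 0.0941), with the pineal libraries fitted alone (0.0852) and without the retina ZT1 and ZT19 libraries (0.0531), all by limma. Markers of macrophages moved the same way but less: their sum was 58.2 to 69.5 FPKM at ZT1, ZT7 and ZT13 and 45.2 and 49.5 at ZT19 and ZT23, a ratio of 1.31 between the means. This was not particular to macrophages. The same ratio ran from 1.17 (the mast cell list, nearly all Kit) to 2.50 (B cells) in most other marker lists. It was below 1 for NK cells (0.78), pinealocytes (0.97) and lens (0.37). Of 11 tested macrophage markers, Cd68, Emr1 and Tyrobp were called by the pineal cosine (20.7% of all genes) and Tyrobp as lower in late dark (4.23%). Cd68 was also called for the difference in rhythm between the tissues (4.95%). As a percentage of the macrophage marker sum, Ccl9 was 22.5, 42.8, 23.2 and 24.3 from ZT1 to ZT15, then 5.31 and 1.32 at ZT19 and ZT23. The part of any cell type in the change of Ccl9 was not tested.

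In the retina, Ccl9 was low throughout, at 0.337 FPKM at ZT1, 1.26 at ZT7, 0.493 at ZT13, 0.398 at ZT15, 0.0460 at ZT19 and 0.0498 at ZT23. Here too both late dark libraries were below all others, at values under the estimated 3 fragments per kb. The late dark difference was -0.66 (SE 0.33, limma adjusted p = 0.454) and was not called. The difference between the tissues in this effect was -2.30 (SE 0.46, limma adjusted p = 0.0566), which missed the threshold. It passed when pineal ZT1 (adjusted p = 0.0128) or pineal ZT19 (0.0316) was left out, the latter with 1 late dark library left. In the mixed pools Ccl9 was at 12.9 FPKM at ZT7 and 21.7 at ZT19, so these single pools did not have the lower value at night.

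The neighbours of Ccl9 on the chromosome were far lower in the pineal gland. On rn4, Ccl9 (chr10:71645931-71650814) is followed by Ccl6 (chr10:71660623-71665255) in a group with Ccl5, Ccl3 and Ccl4. Pineal Ccl6 ran 0.351, 0.236, 0.107, 0.119, 0 and 0 FPKM from ZT1 to ZT23, so its late dark libraries were also below all others, at levels near counting error and too low to be tested over time. In the mixed pools it was at 7.21 and 1.71 FPKM. Ccl3 lay between 0.107 and 0.317 FPKM in the pineal gland, Ccl5 between 0.151 and 0.374, and Ccl4 was listed at 0. Ccl9, Ccl6 and Ccl3 are paralogs with similar sequence, so reads may have been split between them.

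The upstream sequences of Ccl9 and Ccl6 are shown because the genes are adjacent paralogs and differ in level. Each is the 250 bases before the RefSeq start on GRCr8, 5′ to 3′ on the gene's strand, with motif matches in capitals.

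Ccl9, chr10:68868878-68869127, minus strand: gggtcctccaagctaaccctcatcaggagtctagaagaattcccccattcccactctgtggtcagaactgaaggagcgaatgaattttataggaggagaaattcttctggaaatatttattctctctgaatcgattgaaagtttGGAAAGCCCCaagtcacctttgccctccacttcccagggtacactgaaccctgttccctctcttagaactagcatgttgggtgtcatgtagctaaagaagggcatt
Ccl6, chr10:68883367-68883616, minus strand: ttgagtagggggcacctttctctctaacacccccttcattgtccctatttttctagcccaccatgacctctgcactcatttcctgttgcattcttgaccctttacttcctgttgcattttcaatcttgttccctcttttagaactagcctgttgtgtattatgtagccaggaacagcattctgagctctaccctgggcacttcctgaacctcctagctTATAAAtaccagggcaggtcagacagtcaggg

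In Ccl9 the capitals mark a match to the NF-kappaB consensus, 106 to 97 bases before the start, and in Ccl6 a TATAAA box, 32 to 27 bases before it. The windows are not in register, since the run ttagaactagc lies nearer the end of the Ccl9 one than of the Ccl6 one. Bases of Ccl9 that match the TATAAA region of Ccl6 may lie past its RefSeq start and were not searched. The marks are therefore no comparison of the promoters. 39 of the 51 members had an upstream sequence. The NF-kappaB consensus, searched on both strands, was found in 8 of them (Ccl9, Ccl20, Cxcl1, Cxcl2, Cxcl6, Cxcl10, Cxcl11 and Ccr3), beside 3.52% of all 27457 upstream sequences. TATAAA, searched on the gene's strand, was in 11 of 39 and in 8.38% of all. Of sequences tied to the clock and to cAMP, the E-box CACGTG was in 1 of 39 (Ccl28; 5.79% of all), the D-box TTANGTAA in 1 (Ccr6; 2.02%) and the cAMP response element TGACGTCA in none (1.70%), all on both strands. A match is a run of letters and does not show that a factor binds.

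Cxcl12 was highest in the pineal gland at ZT13, 1 h before lights off. Its 6 values were 2.58, 4.18, 6.82, 3.15, 2.98 and 2.73 FPKM from ZT1 to ZT23. The cosine gave a range of 0.88 with a peak at ZT10.7 (limma adjusted p = 0.0375), a call that was lost in 15 of 19 alternatives, among them leaving out ZT13 (0.52, limma adjusted p = 0.0955). In the retina Cxcl12 stayed at 19.7 to 21.8 FPKM. The difference in rhythm between the tissues was not called (limma adjusted p = 0.172), but passed when pineal ZT15 was left out (limma adjusted p = 0.0242). The sums of meningeal markers (483 FPKM) and endothelial markers (25.9) were highest in the same pineal ZT13 library. The part of those cells in the ZT13 value was not tested.

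Cxcl10 was also highest at ZT13 in the pineal gland, with 2.06, 1.04, 5.93, 2.42, 1.01 and 0.637 FPKM from ZT1 to ZT23. It was not called by the cosine (limma adjusted p = 0.147) or in late dark (-0.95, SE 0.40, limma adjusted p = 0.161). The cosine passed when ZT1 (adjusted p = 0.0185) or ZT7 (0.00293) was left out. Irf7, which carries interferon signals, had its highest pineal value in the same library (22.7 FPKM at ZT13 against 9.40 to 18.2). Cxcl9, induced by the same signals, had its lowest pineal value there, at 4.89 FPKM. Art3, whose span holds Cxcl10, had its lowest pineal value there as well (0.435 FPKM).

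The upstream sequences of Cxcl10 and Ccl19 are shown because, of the 39, only they held the interferon motif GAAANNGAAA (3.29% of all, both strands).

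Cxcl10, chr14:15988816-15989065, plus strand: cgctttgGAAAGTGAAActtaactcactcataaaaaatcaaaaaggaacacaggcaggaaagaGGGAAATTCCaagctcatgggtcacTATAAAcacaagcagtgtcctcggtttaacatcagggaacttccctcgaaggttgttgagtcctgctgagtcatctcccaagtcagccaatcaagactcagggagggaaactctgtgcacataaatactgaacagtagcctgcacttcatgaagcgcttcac
Ccl19, chr5:61761165-61761414, minus strand: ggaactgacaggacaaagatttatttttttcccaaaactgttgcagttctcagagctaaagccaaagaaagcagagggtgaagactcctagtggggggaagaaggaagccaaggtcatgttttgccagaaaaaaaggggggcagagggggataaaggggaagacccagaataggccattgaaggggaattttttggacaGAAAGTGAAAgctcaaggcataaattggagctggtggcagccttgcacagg

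In Cxcl10 the capitals mark in turn the interferon motif, the NF-kappaB consensus and TATAAA, and in Ccl19 the interferon motif. Ccl19 did not follow Cxcl10 over the day: its pineal values were 11.9, 11.98, 15.0, 16.3, 8.90 and 13.5 FPKM from ZT1 to ZT23.

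No other member was called over time in the pineal gland. Cxcl16 came nearest, with 7.21, 6.31, 9.28, 5.85, 4.60 and 4.82 FPKM from ZT1 to ZT23, a late dark difference of -0.58 (SE 0.18, limma adjusted p = 0.0738). Cxcl17 ran 8.12, 9.06, 7.34, 10.7, 5.96 and 6.24 FPKM (-0.37, SE 0.15, limma adjusted p = 0.142). In 6 of 19 members both late dark libraries lay below all 3 light libraries (Ccl9, Ccl27, Cx3cl1, Cxcl10, Cxcl16 and Cxcl17), which is close to the 31.5% of all genes, and in none above (9.74%). 15 of 19 estimates were below 0, with a median of -0.16 beside -0.12 for all genes. The 6 tested receptors had no call. Cxcr4 was lowest at ZT15 (0.643 FPKM) and Ccr9 at ZT7 (2.14 FPKM).

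In the retina no member was called by the cosine (1.02% of all genes) or in late dark (0.0096%) with limma. At an unadjusted p under 0.05 there were 2 of 19 in each: Cxcr7 and Ccr10 by the cosine, Cxcr7 and Ccl27 in late dark. Of all 10416 genes tested, 2251 and 1238 passed that limit, so the members did not exceed the share of all genes. Cxcr7 ran 5.93, 6.67, 9.31, 6.89, 4.73 and 4.77 FPKM from ZT1 to ZT23 (late dark -0.51, SE 0.19, limma adjusted p = 0.352). Ccl27 ran 3.50, 3.81, 3.21, 2.27, 2.50 and 2.06 FPKM (-0.46, SE 0.15, limma adjusted p = 0.293). In 4 of 19 members both late dark libraries lay below the light libraries (30.8% of all genes) and in none above (4.74%). Neither the rhythm (4.95% of all genes) nor the late dark effect (0.71%; 0.566% higher and 0.144% lower) was called different between the tissues for any member with limma. At an unadjusted p under 0.05 there was 1 of 19 in each, Cxcl12 and Ccl9, beside 2305 and 1156 of all 10416 genes.

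**Figure D4:**
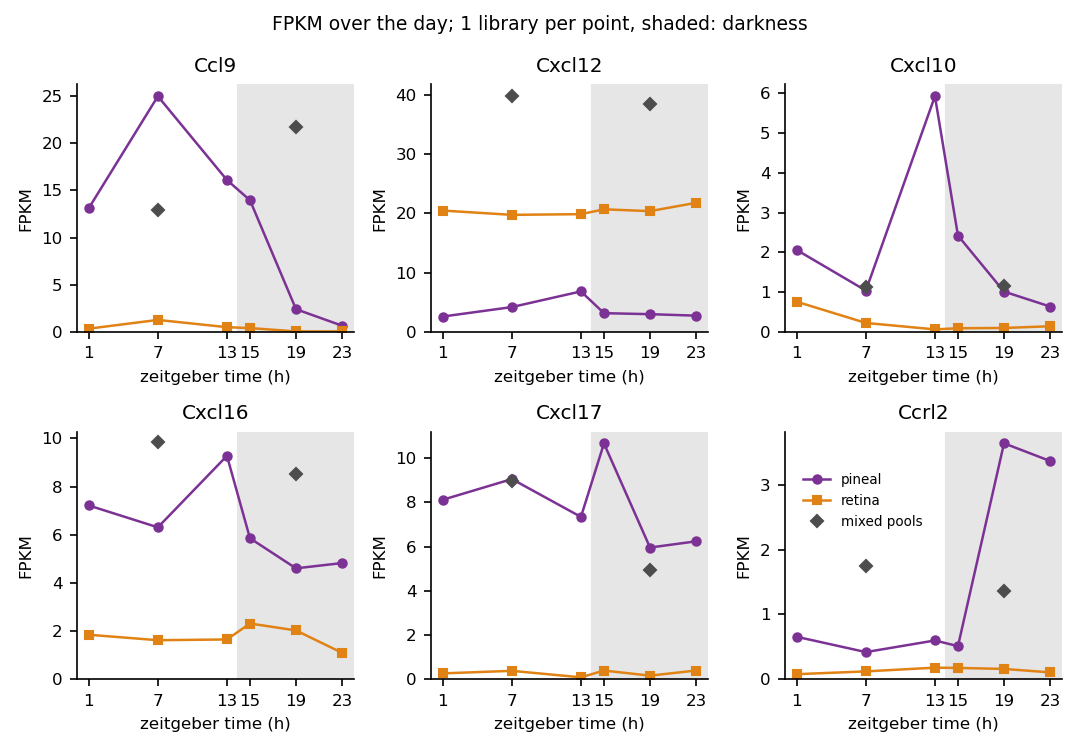
FPKM over the day of 5 chemokines and the atypical receptor gene Ccrl2 in pineal gland (circles), retina (squares) and mixed pools (diamonds), 1 library per point, with darkness shaded. Pineal Ccl9 drops from 14.0 FPKM at ZT15 to 0.654 at ZT23, pineal Ccrl2 goes from 0.510 to 3.37 over the same times, and Cxcl12 and Cxcl10 have a single high point at ZT13.

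Ccrl2, an atypical receptor that presents chemerin and whose symbol falls outside the family rule, moved against Ccl9. Pineal Ccrl2 was at 0.654, 0.418, 0.597, 0.510, 3.65 and 3.37 FPKM from ZT1 to ZT23. It rose in late dark by 1.54 (SE 0.11, limma adjusted p = 4.75e-05) and not in the retina (0.01, SE 0.11, limma adjusted p = 0.984). This difference between the tissues was itself called (1.53, SE 0.16, limma adjusted p = 0.00222). Ccrl2 belongs to a list of 12 atypical receptors and platelet chemokines chosen with earlier results of these data known. Of these, 3 could be tested over time, and only Ccrl2 was called in pineal late dark, beside 7.28% of all genes. Chemerin, encoded by Rarres2, was at 7.58 to 14.0 FPKM in the pineal gland and 3.86 to 5.55 in the retina. Its signalling receptor Cmklr1 was at 1.26 to 2.85 and 0.0368 to 0.140 FPKM. The pineal cosine called Ccrl2 and Cmklr1 of the list, and also Rarres2 (20.7% of all genes). Their fitted peaks were at ZT20.7, ZT8.09 and ZT11.6 (limma adjusted p = 0.0286, 0.0274 and 0.0245). None of them was called by the cosine in the retina or for the difference in rhythm between the tissues.

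Of genes that act below the receptors, 16 could be tested over time. In the pineal gland 2 were called in late dark (7.28% of all genes), and 5 by the cosine (20.7%): Adrbk1, Arrb1, Gnb1, Ptk2b and Rgs2. Rgs2, which shortens G protein signals, rose by 2.07 (SE 0.39, limma adjusted p = 0.0111), with 38.8 FPKM at ZT19 and 12.4 at ZT23 against 4.06 to 5.32 before. Elmo1, which links chemokine receptors to Rac, fell by 0.91 (SE 0.23, limma adjusted p = 0.0402), with 6.93 and 15.3 FPKM against 18.4 to 21.7. None of 11 tested genes of the inducers and their feedback was called in pineal late dark with limma, beside 7.28% of all genes. Between the tissues, 12 of 13 of these inducers were called (68.9% of all genes), 10 higher in the pineal gland (36.9%). Ifng and Il6, the cytokine genes themselves, were listed at 0 in all pineal and retina libraries, and Tnf stayed at or under 0.121 FPKM.

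Most of the family lies in groups along the genome, and members of a group differed in level. With neighbours joined at up to 500 kb on rn4, 33 of 51 members formed 8 groups and 18 lay alone. In the group of Cxcl9, Cxcl10 and Cxcl11 on chromosome 14, pineal means were 6.46, 2.18 and 0.172 FPKM. In the group on chromosome 10 with Ccl2 and Ccl7, these reached pineal means of 1.54 and 1.36 FPKM, whereas Ccl11, Ccl12 and Ccl1 stayed at or under 0.240 in every pineal library. In the group of receptors on chromosome 8, Ccr9 had the highest pineal mean, and Cxcr6, Xcr1, Ccr1, Ccr1l1, Ccr3 and Ccr2 stayed at or under 0.810 FPKM in every pineal library. The group of Cxcl1, Cxcl2, Cxcl3 and Cxcl6 on chromosome 14, which attract neutrophils, did not pass 0.407 FPKM in any pineal or retina library.

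Between the mixed pools of ZT19 and ZT7 there was 1 library each and no test. Of 24 members at or above 1 FPKM in either pool, 1 was lower by at least 1 on the log2(FPKM + 1) scale (0.875% of all genes) and none higher (0.537%). This was Ccl6, at 1.71 FPKM against 7.21, a difference of -1.60. Ccl21b (4.55 against 9.66 FPKM), Ccl5 (2.26 against 5.24) and Ccl25 (3.19 against 6.07) were each lower at ZT19 by less than that. The median difference was -0.16 for the members and -0.13 for all genes. The pools came from different rats.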

How the data were processed

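Polyadenylated RNA was enriched from total RNA, copied with random primers and sequenced as 101-base paired ends, 6 barcoded libraries to a lane, per the labels' protocols. TopHat 1.3.1, Cufflinks 1.2.0 and build rn4 are listed in the submitters' processing notes; use of strand is not given in the sources used here. The authors deposited FPKM per RefSeq transcript, which were summed per gene ID (16932 transcripts, 16472 genes). Read counts were not used here, so exact depth is unknown. 1 was added to printed rn4 starts, which count from 0.

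log2(FPKM + 1) was tested with limma 3.58.1 (R 4.3.3, empirical Bayes with trend, two-sided) on genes that reached 1 FPKM in 2 or more libraries, with Benjamini-Hochberg adjustment over all genes and a threshold of 0.05. The time fit used 12 libraries (6 residual degrees of freedom), the tissue fit 14 (11). The pseudocount understates changes of low genes. The fits were tested on simulated data. Upstream sequences are from RefSeq (GRCr8), matched by gene ID.

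Named members are those called in a comparison, those at or above 1 FPKM in 2 or more libraries, and their receptors or ligands. Members and lists were chosen with earlier results of these data known. Alternatives covered pseudocount, filter, scaling, phase grouping, a time block and each library left out. Values of some single genes are not reported here, although counts over the members include them.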

Additional observations from a re-analysis of the deposited data

Results flagged for a closer look

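In 29 groups of 6 libraries (a named member in 1 tissue, reaching 1 FPKM), a library standing far from the other 5 was looked for by Dixon's 95% critical value for the gap over the range, which chance alone flags in about 1 of 20 groups. 3 stood apart, each the highest library of its group. Cxcl10 in the pineal ZT13 library was at 5.93 FPKM, with the next library at 2.42. Cxcl13 in the pineal ZT7 library was at 1.08 FPKM, with the next at 0.474. Ccl9 in the retina ZT7 library was at 1.26 FPKM, with the next at 0.493. Retina ZT7 held the highest retina value for 53.4% of the 9693 genes at or above 1 FPKM in at least 2 retina libraries, and pineal ZT13 held the highest pineal value for 22.4% of 9410 genes.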

How the results depend on the processing

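Of 61 calls of a member in a comparison, 44 held in every alternative, 16 in pineal against retina, 14 in pineal against mixed and 14 in retina against mixed. Those against the pools include Ccl5, Ccl6, Ccl21b and Ccl25 in both comparisons and Ccl11 in the retina one. These members passed the limit of 1 FPKM through the pools alone, so they could only be lower and their calls are no sign of stability. With no filter on low genes the members called numbered 0 by the pineal rhythm (2 in the reported fit), 2 in pineal late dark (1) and 1 in the late dark difference (0). They numbered 32 in pineal against mixed (21) and 41 in retina against mixed (21). Without the filter all 51 members are tested, including those near 0 in the pineal gland and retina. The share of all genes called in that setting is not reported here, so the larger counts are no result about the members. The pineal rhythm count was 1 under quantile normalization and under median ratio scaling, and 0 with the pineal gland fitted alone and without both retina ZT1 and retina ZT19. With ZT15 grouped with the dark libraries the pineal late dark count was 0. Leaving out 1 library at a time gave 1 to 4 members for the pineal rhythm (4 without pineal ZT7), 0 to 1 for the rhythm difference and the late dark difference, 1 to 2 in pineal late dark (2 without pineal ZT1), 17 to 19 in pineal against retina, 12 to 21 in pineal against mixed (13 without mixed ZT7, 12 without mixed ZT19) and 12 to 22 in retina against mixed (12 without mixed ZT7). Where 1 library of a group is left, it is assumed to vary like the others. Quantile normalization turned Ccl27 (0.16) in pineal against mixed, and Ccl19 (0.20) and Ccl7 (0.066) in retina against mixed. The call of Cxcl16 as lower in the pineal gland than in the mixed pools was lost in 15 of 19 alternatives. The causes were not tested.

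With time of day as a block, a fit over the pineal and retina libraries alone called 18 of 19 tested members between the tissues. The reported fit, without a block and with the mixed pools, called 19 of 25 (68.9% of all genes). These counts are therefore not over the same members. The share of all genes called in the blocked fit is not reported here, so its 18 of 19 is no result about the members. The labels do not pair animals across tissues. Deviations of same-time libraries from their tissue means correlated at 0.0491 to 0.27 across genes, over 0.1 in 5 of 6 times. Values under about 0.157 FPKM rest on few fragments.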
